A study of Mus musculus with 2 samples.

Results

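Atf4 and the stress-response regulators that surround it were compared between mouse E14 embryonic stem cells (ESCs) and E14-Sox2TA/WT cells by RNA-seq. The group holds 10 genes of the 24532 in the gene table and was taken by gene symbol, namely Atf4, Ddit3, Trib3, Nupr1, Sesn2, Atf3, Atf5, Ppp1r15a, Chac1 and Ddit4. All 10 symbols were found, each in 1 row. E14 is an established line with wild-type (WT) Sox2. E14-Sox2TA/WT cells descend from single E14 cells sorted after editing with CRISPR/Cas9, and 1 Sox2 allele carries the T258A change, which replaces threonine 258 with alanine, while the other allele is WT. Both lines were cultured with serum and leukemia inhibitory factor, but the edited clones had been kept in addition with the kinase inhibitors PD0325901 and CHIR99021, which were withdrawn some passages before use. Each genotype had 1 library. Genotype, clone and culture history therefore cannot be told apart. Without replicates no difference below could be tested, and p-values are left out.

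Cells under stress phosphorylate the translation factor eIF2 on its alpha subunit, which lowers protein synthesis in general and raises translation of the Atf4 mRNA through its upstream open reading frames. Atf4 protein, a basic leucine zipper (bZIP) transcription factor, then raises genes for amino acid supply, redox balance and feedback control, a program named the integrated stress response. Its shared DNA element is a C/EBP-ATF composite site, at which Atf4 binds with a C/EBP-type partner. The RNA-seq values describe mRNA alone, and neither Atf4 protein nor eIF2 phosphorylation was measured here.

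Promoter windows were examined first, because the genes are known for a shared DNA element. RefSeq promoters (GRCm38.p6), which run from 250 bases before to 50 bases after a start site, were found for all 10 genes, with 11 windows in all since Atf5 has 2 start sites. The composite letters TTGCATCA were searched on both strands and were present in 3 of the 10 genes (Nupr1, Chac1 and Atf3), and in 294 of 32851 promoter windows (0.895%). The relaxed form TTNCATCA, which includes every match of the former, was present in 4 of the 10 genes, with Trib3 added, and in 3.97% of all windows. The cyclic AMP response element TGACGTCA, a site for factors of the ATF and CREB families, was present in Ppp1r15a alone among the 10 and in 1.79% of all windows. The 4 windows with a composite match are given 5′ to 3′ on the strand of the gene, with the match in capitals. Of the 4 genes with the lowest ratios of the group, Nupr1, Chac1 and Trib3 had a match, Trib3 only in the relaxed form, and Ddit3 had none. Atf3, with the full letters, had a higher ratio than these 4. A link between match and ratio was not tested. Nupr1 lies on chr7:126625421-126625720, Chac1 on chr2:119350992-119351291, Trib3 on chr2:152344011-152344310 and Atf3 on chr1:191183284-191183583, and all but Chac1 are on the minus strand.
Nupr1: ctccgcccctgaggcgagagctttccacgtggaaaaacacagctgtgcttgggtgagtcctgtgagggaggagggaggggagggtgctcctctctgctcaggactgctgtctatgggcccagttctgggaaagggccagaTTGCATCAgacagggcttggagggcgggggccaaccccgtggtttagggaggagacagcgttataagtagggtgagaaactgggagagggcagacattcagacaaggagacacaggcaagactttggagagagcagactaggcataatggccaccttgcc
Chac1: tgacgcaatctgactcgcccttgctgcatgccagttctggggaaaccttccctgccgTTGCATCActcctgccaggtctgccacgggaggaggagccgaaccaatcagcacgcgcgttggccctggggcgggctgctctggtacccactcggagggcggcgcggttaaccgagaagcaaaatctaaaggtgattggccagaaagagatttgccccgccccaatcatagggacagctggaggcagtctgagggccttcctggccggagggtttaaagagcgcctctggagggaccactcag
Trib3: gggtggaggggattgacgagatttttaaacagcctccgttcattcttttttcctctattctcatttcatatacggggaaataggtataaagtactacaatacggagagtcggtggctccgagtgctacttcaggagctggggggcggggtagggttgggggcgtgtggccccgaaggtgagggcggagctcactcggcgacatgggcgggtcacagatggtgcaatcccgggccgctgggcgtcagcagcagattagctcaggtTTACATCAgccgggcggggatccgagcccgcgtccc
Atf3: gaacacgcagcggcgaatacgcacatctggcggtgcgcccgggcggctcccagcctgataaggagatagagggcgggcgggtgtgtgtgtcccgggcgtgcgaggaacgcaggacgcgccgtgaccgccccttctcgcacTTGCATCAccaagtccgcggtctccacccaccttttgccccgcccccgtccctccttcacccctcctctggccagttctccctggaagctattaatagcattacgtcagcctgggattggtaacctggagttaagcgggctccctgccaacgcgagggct

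Counted from the start site, the match lay at -110 to -103 in both Nupr1 and Atf3, at -193 to -186 in Chac1, and at 14 to 21 in Trib3, where the letters were TTACATCA. No window of Atf4, Ddit3, Atf5, Sesn2 or Ddit4 held any of the letters searched, which says only that they are not in these windows. The match of Ppp1r15a lay at -12 to -5.

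**Figure D1:**
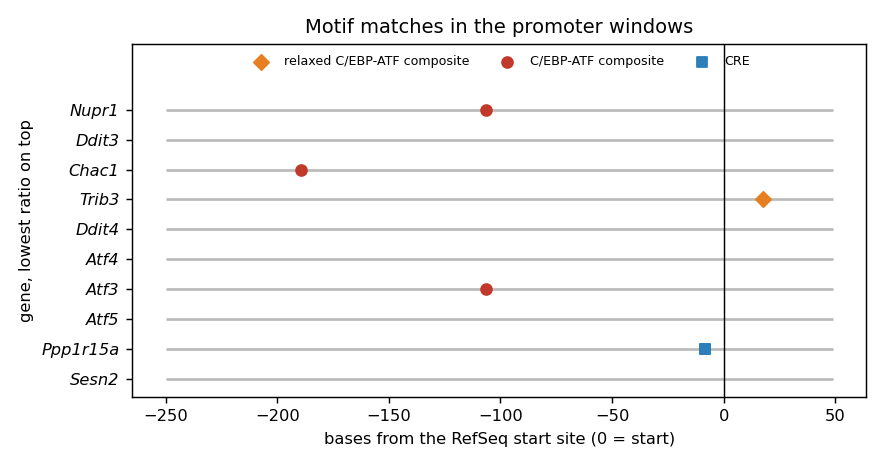
Matches of the C/EBP-ATF composite, its relaxed form and the cyclic AMP response element (CRE) in the promoter windows of the 10 genes; the x axis gives bases from the RefSeq start site, and genes are ordered by their ratio with the lowest on top. Composite matches stand in the rows of Nupr1, Chac1 and Atf3, and the 2 windows of Atf5, drawn as 1 line, held no match.

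Both libraries expressed ESC markers. The 7 markers examined were at a TPM of 251 or more in both (TPM, a transcript level scaled for length and library size), and Sox2 itself had a TPM of 372.5 in E14 and 274.2 in E14-Sox2TA/WT cells. Nanog, a core ESC factor, was lower in E14-Sox2TA/WT cells (TPM 526.9 and 251.3, a log2 ratio of -1.07) and Dppa5a had a log2 ratio of -0.63, while Pou5f1 had 0.03. The table holds no sequence, so the edit could not be seen in it. Total counts were 60263536 reads in E14 and 44609228 in E14-Sox2TA/WT cells. The fibroblast feeder markers Postn, Lum and Dcn had 0 reads in both libraries, while Thy1 was lower in E14-Sox2TA/WT cells (TPM 40.1 and 11.4) and the collagen genes Col3a1 (15 and 151 reads), Col1a2 (43 and 109 reads) and Col1a1 (TPM 2.66 and 2.95) were higher. The 7 feeder markers summed to a TPM of 43.1 and 16.6, a difference carried by Thy1. All 6 primitive endoderm markers were lower in E14-Sox2TA/WT cells (summed TPM 46.2 and 17.1, from 3.13 to 15.0 per gene in E14 and from 0.778 to 7.36 in E14-Sox2TA/WT cells, none at 0). Of the 6 trophoblast markers 3 were higher, namely Cdx2 (TPM 0.474 and 12.2), Eomes (2.57 and 7.34) and Hand1 (2.59 and 2.90), and Elf5 had 0 reads in both. Their sum was nevertheless lower (57.2 and 39.1), through Tfap2c (50.9 and 16.1), with Gcm1 also lower (0.649 and 0.557). For Hand1, Gcm1 and Col1a1 the counting interval, described below, included no change, so the direction was not resolved. The part of the markers in this paragraph, or of cells that carry them, in the differences below was not tested. In bulk RNA, fewer cells with a transcript and less of it per cell cannot be told apart.

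All 10 regulators had a lower TPM in E14-Sox2TA/WT cells than in E14, and 8 of them were more than 2-fold lower. A filter kept the 9094 genes whose TPM reached 10 in either library, of which 4.07% were more than 2-fold lower, 4.17% were more than 2-fold higher, and 42.7% were lower by any amount. All 10 genes passed this filter, Atf3 only through its value in E14, and no regulator was more than 2-fold higher. With FPKM in place of TPM, 496 genes were more than 2-fold lower and 278 higher, compared with 370 and 379, as the median log2 ratio of all genes was then -0.06. The median log2 ratio of TPM was -1.58 over the 10 genes and 0.08 over all 9094, and the median over the 9 genes other than Atf4 was -1.74. Summed over the group, TPM was 1953 in E14 and 638.5 in E14-Sox2TA/WT cells. A difference of more than 4-fold was found for 4 of the 10 genes and for 0.88% of all genes past the filter.

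**Figure D2:**
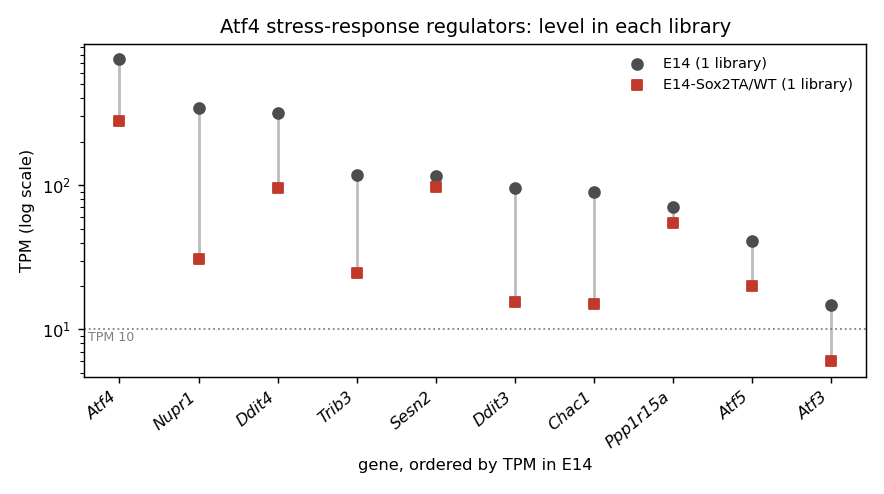
TPM of the 10 regulators on a log scale in the single library of E14 (circles) and of E14-Sox2TA/WT cells (squares), ordered by TPM in E14; the dotted line marks a TPM of 10. Every square lies below its circle, with the longest line at Nupr1 (342 and 30.8) and short lines at Sesn2 and Ppp1r15a.

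Intervals that cover the counting of reads were narrow at this depth, since the least covered value was the 250 reads of Atf3. The 95% counting interval (Clopper-Pearson) lay wholly past 2-fold for 7 of the 10 genes, compared with 3.14% of genes past the filter. These intervals do not include variation between cultures, nor the copying of molecules by PCR.

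Among the transcription factors, Atf4 (Entrez gene 11911, chromosome 15, 80255184 to 80257545) had 40468 reads and a TPM of 748 in E14, and 10144 reads and a TPM of 279 in E14-Sox2TA/WT cells. It was 2.68-fold lower in E14-Sox2TA/WT cells (2.62 to 2.74), a log2 ratio of -1.42, and only 1.98% of genes past the filter had a lower ratio. Atf4 was the most abundant of the 10 transcripts in both libraries, with 38.3% of their summed TPM in E14 and 43.8% in E14-Sox2TA/WT cells. The 396 genes past the filter on chromosome 15 had a median log2 ratio of -0.14. The nearest genes past the filter on either side of Atf4 were Mief1, with a log2 ratio of 0.43, and Rps19bp1, with -0.38.

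Ddit3 (Entrez gene 13198, chromosome 10, 127290793 to 127296291), which encodes Chop, a C/EBP-family factor known for its part in cell death under lasting endoplasmic reticulum (ER) stress, showed a wider gap than Atf4. Its TPM was 95.2 in E14 (2592 reads) and 15.5 in E14-Sox2TA/WT cells (284 reads), which was 6.15-fold lower (5.44 to 6.98). Ddit3 shares 68 exon bases with Mars, a tRNA synthetase gene on the opposite strand, and strand handling is not given in the sources used here, so reads of these bases are uncertain. Mars had 23255 and 11495 reads and a log2 ratio of -0.44, compared with -2.62 for Ddit3.

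Atf5 (Entrez gene 107503, chromosome 7, 44812256 to 44816658), a bZIP factor tied to mitochondrial stress whose translation is controlled much like that of Atf4, lay at the 2-fold threshold. Its TPM was 41.0 in E14 (2342 reads) and 19.9 in E14-Sox2TA/WT cells (755 reads), and the log2 ratio of -1.05 had a counting interval from -1.17 to -0.93, so it was not resolved from a difference under 2-fold. Once the dependence of ratios on GC content and length was subtracted, the log2 ratio of Atf5 was -0.80. Atf5 shares 82 exon bases on the opposite strand with both Nup62 (log2 ratio -0.08) and Il4i1, which had 0 reads in both libraries.

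Atf3 (Entrez gene 11910, chromosome 1, 191170296 to 191183333), an inducible bZIP factor of many stress responses, was the least abundant of the 10. It had 923 reads in E14 and 250 in E14-Sox2TA/WT cells, with a TPM of 14.8 and 5.98. The difference was 2.48-fold (2.15 to 2.86), and its counting interval overlapped that of Atf4 and that of Atf5.

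The widest gap of the group was found for Nupr1 (Entrez gene 56312, chromosome 7, 126623246 to 126625470), which encodes a small stress-induced nuclear protein. Nupr1 had 6749 reads and a TPM of 342 in E14, second only to Atf4 within the group, and 407 reads and a TPM of 30.8 in E14-Sox2TA/WT cells. It was 11.1-fold lower (10.1 to 12.3), and 19 of the 9094 genes past the filter had a lower ratio. Relative to Atf4 in the same library, the TPM of Nupr1 was 45.8% in E14 and 11.0% in E14-Sox2TA/WT cells. Its neighbour Sgf29, a chromatin reader gene 22916 bases away, had a log2 ratio of -0.92, and Cln3 on the other side had -0.08.

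Trib3 and Chac1, targets of Atf4 and Chop, were each more than 4-fold lower. Trib3 (Entrez gene 228775, chromosome 2, 152337425 to 152344060), a pseudokinase that binds Akt and feeds back on Atf4, had 7594 reads in E14 and 1066 in E14-Sox2TA/WT cells, with TPM values of 118 and 24.6, and was 4.78-fold lower (4.48 to 5.10). Chac1 (Entrez gene 69065, chromosome 2, 119351242 to 119354326), an enzyme that degrades glutathione, had 4444 and 498 reads, with TPM values of 89.9 and 15.0, and was 5.98-fold lower (5.45 to 6.58). The counting interval of Chac1 overlapped that of Ddit3, while Trib3 and Chac1 did not overlap each other.

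Of the 3 remaining genes, Ddit4 and Sesn2 restrain growth signaling and Ppp1r15a acts on eIF2alpha. Ddit4 (Entrez gene 74747, chromosome 10, 59949675 to 59951770), also named Redd1, restrains mTORC1, the kinase complex that promotes growth, through the Tsc complex. It had 16891 reads in E14 and 3387 in E14-Sox2TA/WT cells, with TPM values of 318 and 95.2, and was 3.34-fold lower (3.22 to 3.47). Sesn2 (Entrez gene 230784, chromosome 4, 132492804 to 132510456), a leucine sensor that restrains mTORC1 through GATOR2, had 9724 and 5444 reads, with TPM values of 116 and 97.1. The log2 ratio of Sesn2 was -0.26 (-0.31 to -0.21), well short of 2-fold, and 23.4% of genes past the filter had a lower ratio.

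Ppp1r15a (Entrez gene 17872, chromosome 7, 45522917 to 45526268), which encodes Gadd34, directs protein phosphatase 1 to eIF2alpha and so ends the stress response. Its TPM was 70.3 in E14 (5163 reads) and 55.0 in E14-Sox2TA/WT cells (2710 reads), a log2 ratio of -0.35 (-0.42 to -0.29). The intervals of Ppp1r15a and Sesn2 overlapped. Ppp1r15a shares 12 exon bases with Tulp2 on the opposite strand, a gene under the filter with 532 and 161 reads and a log2 ratio of -1.21. Ppp1r15a and Sesn2 were both within 2-fold, and the gap between Ppp1r15a and the next regulator, Atf5, was 0.69 on the log2 scale.

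The order of the group differed between the libraries. By TPM, Sesn2 ranked 5 of the 10 in E14 and 2 in E14-Sox2TA/WT cells, and Ppp1r15a ranked 8 and 4, while Nupr1 ranked 2 and 5 and Chac1 ranked 7 and 9. Relative to Atf4, the TPM of Sesn2 was 15.5% in E14 and 34.8% in E14-Sox2TA/WT cells. In E14, 9 of the 10 genes were above the median TPM of genes past the filter (34.4), and in E14-Sox2TA/WT cells 4 were (36.2).

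**Figure D3:**
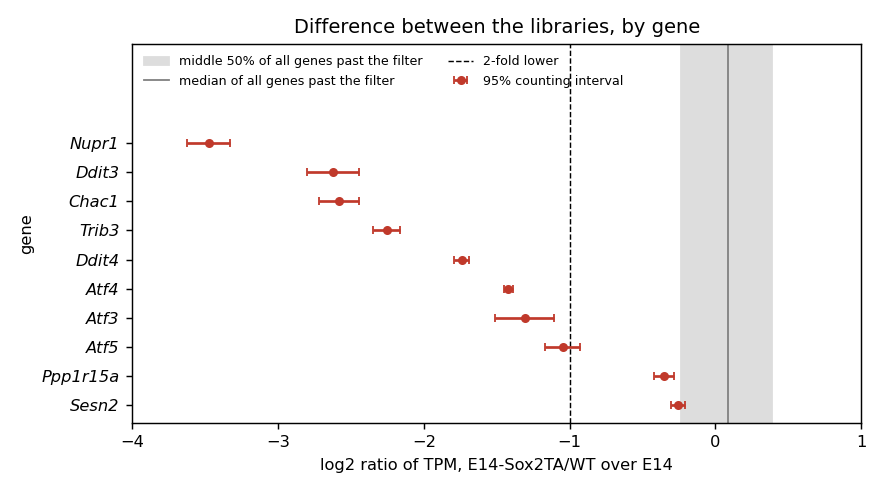
Log2 ratio of TPM (E14-Sox2TA/WT over E14) for each regulator with its 95% counting interval; the grey band spans the middle 50% of all genes past the filter, the grey line their median and the dashed line a 2-fold lower level. The 10 points lie left of the median, from -3.47 for Nupr1 to -0.26 for Sesn2, and the interval of Atf5 crosses the dashed line.

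Genes near the regulators on the chromosome were examined next. The nearest gene past the filter on each side was taken for each of the 10. Of these 20 neighbours none was more than 2-fold lower or higher. The shares of all genes past the filter were 4.07% and 4.17%, so 20 genes are too few to set the neighbours apart. The median log2 ratio of the neighbours was -0.01, from -0.92 (Sgf29) to 0.52 (Ino80). Of the 20, 10 were lower by any amount, beside 42.7% of all genes. Genes under the filter, such as Tulp2, are not among the neighbours. The transcripts of the 10 genes held few stretches found elsewhere: at most 1.81% of the 50-base words of a gene (Atf5) were present in transcripts of another gene.

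Genes around the pathway were then described in 12 lists, which held 134 distinct genes past the filter. Of these, 15 (11.2%) were more than 2-fold lower and 2 (1.49%) more than 2-fold higher, beside 4.07% and 4.17% of all genes. The lists were written with earlier results of these data known, so these shares only describe the genes listed. Among the lower genes, Jdp2, Cebpb, Derl3, Gdf15, Stc2 and Slc6a9 passed the filter only through E14, where they were high. Creb1, among the higher genes, passed it only through E14-Sox2TA/WT cells. Upstream of Atf4, none of the 4 eIF2alpha kinases differed by 2-fold, and their median was 0.19 (0.04 to 0.19 over the alternatives of filter and scaling). Eif2ak1, the heme-regulated kinase, had a log2 ratio of 0.45 and Eif2ak4, the sensor of amino acid shortage, had 0.24. Eif2ak2, which responds to double-stranded RNA, had 0.13, and Eif2ak3, the kinase of ER stress, had -0.15. The 12 genes of eIF2, its exchange factor eIF2B and the eIF2alpha phosphatase had a median of 0.06 (-0.09 to 0.06 over the alternatives), with none past 2-fold, from Eif2b3 (-0.57) to Eif2s3x (0.46). Ppp1r15b, the constitutive partner of the phosphatase and paralog of Ppp1r15a, had 0.06, and the catalytic subunit genes Ppp1ca, Ppp1cb and Ppp1cc had 0.01, 0.33 and -0.18.

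Among 6 paralogs past the filter, 3 were lower and none was 2-fold away, and the lowest was Sesn1, a p53 target, with a log2 ratio of -0.67. Ddit4l had -0.44, Chac2, the constitutive counterpart of Chac1, had -0.27, Sesn3 had 0.00 and Trib1 had 0.56. Trib2 (163 and 296 reads) and Nupr1l (30 and 15 reads) were under the filter.

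Other bZIP factors, several of which pair with Atf4 or Chop, were uneven, with 3 of 18 past the filter more than 2-fold lower and 2 more than 2-fold higher. Jdp2, a repressor that binds with Jun, was 5.15-fold lower (1013 and 132 reads), Cebpb, a partner of both Atf4 and Chop, was 3.93-fold lower (734 and 125 reads), and Jund was 2.34-fold lower. Junb was 3.18-fold higher and Creb1 was 2.01-fold higher, the latter with a counting interval of its log2 ratio from 0.93 to 1.09. Cebpg, a frequent partner of Atf4, had a log2 ratio of -0.66.

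Targets of Atf4 in amino acid supply were mostly lower. Of 11 amino acid synthesis genes past the filter 10 were lower, with a median log2 ratio of -0.89, and 3 were more than 2-fold lower. Among all genes past the filter, 42.7% were lower by any amount and 4.07% more than 2-fold lower. Cth, which makes cysteine, was 3.22-fold lower (12955 and 2696 reads), Asns, the asparagine synthetase, was 2.70-fold lower (59443 and 14771 reads) and Psph of serine synthesis was 2.11-fold lower. Got1 was the highest of the list, with a log2 ratio of 0.10. Aldh1l2, under the filter, had 1253 reads in E14 and 131 in E14-Sox2TA/WT cells. Of 9 transporter genes past the filter 8 were lower, and Slc1a4, Slc1a5 and Slc6a9 were more than 2-fold lower, whereas Slc38a2 had a log2 ratio of 0.28. The 13 tRNA synthetase genes had a median of -0.44 and ran from Cars (-0.90) to Vars (0.13), with none past 2-fold.

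Chaperones and the other arms of the unfolded protein response stood near the median of all genes, with a median of 0.01 over 21 genes (-0.13 to 0.03 over the alternatives). Hspa5, the main ER chaperone and a standard sign of ER stress, had a log2 ratio of 0.17, Xbp1 had -0.08 and Atf6 had -0.35. Dnajb9 was highest, with 0.55. Of this list 3 genes were more than 2-fold lower, namely Derl3 (-1.45), Herpud1 (-1.17) and Sdf2l1 (-1.01), which work in ER protein folding and degradation.

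The 10 mitochondrial stress genes past the filter had a median of -0.20 (-0.34 to 0.02 over the alternatives) and ran from Gdf15 to Hspd1 (0.36), a mitochondrial chaperonin gene. Gdf15, a secreted hormone induced by Atf4 and Chop, was 7.42-fold lower, with 2503 and 229 reads and a TPM of 54.8 and 7.38. Fgf21, another secreted target, was under the filter with 149 and 9 reads.

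The 8 other downstream effectors past the filter had a median of -0.25 (-0.44 to -0.25 over the alternatives). Vegfa, the angiogenic growth factor, was 3.07-fold lower and Stc2, a secreted glycoprotein, was 2.48-fold lower, while Ero1l and Tnfrsf10b, known targets of Chop, had log2 ratios of -0.07 and -0.08. Bcl2l11 was highest (0.58).

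Autophagy genes (median -0.04, -0.19 to -0.04 over the alternatives, from Ulk1 at -0.47 to Atg16l1 at 0.32) and the genes of mTORC1 and its inputs (median 0.13, -0.04 to 0.13 over the alternatives, from Nprl3 at -0.41 to Tsc2 at 0.42) held no gene past 2-fold.

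**Figure D4:**
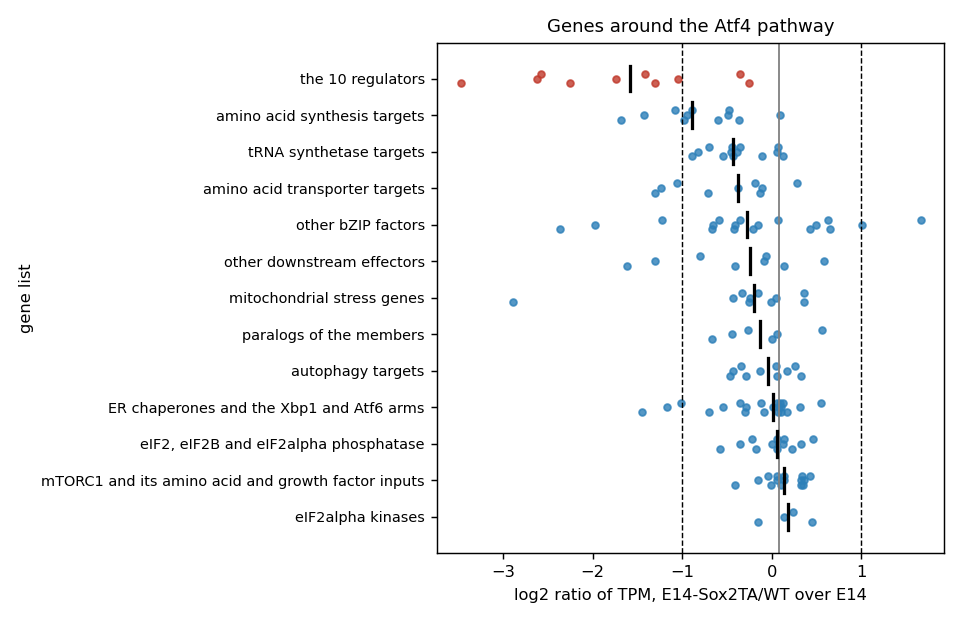
Log2 ratio of TPM (E14-Sox2TA/WT over E14) of each gene past the filter in the 12 pathway lists and among the 10 regulators; black bars are list medians, the grey line is the median of all genes past the filter and dashed lines mark 2-fold. The regulators (median -1.58) and the amino acid synthesis targets (-0.89) lie farthest left, and the eIF2alpha kinases (0.19) lie farthest right.

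The composite letters shown above were finally looked for across genes past the filter. A promoter window was found for 7297 of these genes, and TTGCATCA was present in 49. Besides Nupr1, Chac1 and Atf3, these were 46 genes that do not belong to the group, of which 9 (19.6%) were more than 2-fold lower, compared with 4.07% of all 7297, and 4 (8.70%) were more than 2-fold higher, compared with 3.82%. Of the 9, Serpinb6c, Jdp2, Serpinf1 and Tex40 passed the filter only through E14, where they were high. Among genes with a TPM of 10 or more in both libraries, 5 of 40 (12.5%) were more than 2-fold lower and 4 (10%) more than 2-fold higher, beside 2.04% and 2.43% of all genes kept in this way. The median log2 ratio of the 46 genes was -0.38, beside 0.08 for all 7297. For the 40 genes it was -0.30. The 9 genes were Serpinb6c (-2.71), Jdp2 (-2.37), Serpinf1 (-2.22), Tex40 (-1.71), Crabp1 (-1.40), Slc1a4 (-1.30), Chchd10 (-1.20), Herpud1 (-1.17) and Phyh (-1.03). The 4 higher genes were Sfn (2.37), Arid5b (1.26), Slc7a7 (1.26) and Sh3bgrl (1.25). Chchd10, a small mitochondrial protein gene, was the most abundant of them, with a TPM of 946 and 413, and Jdp2, Slc1a4 and Herpud1 are also in the lists above. After the same subtraction for GC content and length, 7 of the 46 were more than 2-fold lower. For the relaxed letters, 20 of 170 other genes (11.8%) were more than 2-fold lower, but the 46 genes above are among these 170. The median log2 ratio of the 170 was -0.06, and 8 of the 174 genes with members included were more than 2-fold higher. For the cyclic AMP response element, 5 of 291 other genes (1.72%) were more than 2-fold lower, with a median of 0.09. With Ppp1r15a included, 10 of 292 were more than 2-fold higher. The motif was chosen with the values of the 10 regulators known, and a match is not evidence of binding.

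**Figure D5:**
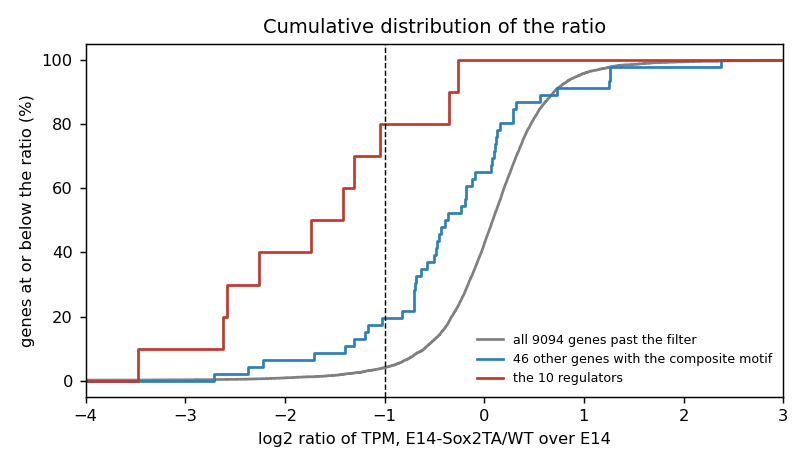
Cumulative share of genes (y axis, percent) at or below each log2 ratio of TPM (E14-Sox2TA/WT over E14) for all 9094 genes past the filter, for the 46 other genes with the composite letters in their promoter window and for the 10 regulators; the dashed line marks 2-fold lower. At that line the curves stand at 4.07%, 19.6% and 80%, respectively, and 4 of the 46 genes lie past 2-fold higher.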

How the data were processed

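RNA-seq was performed on polyadenylated RNA of 1 library per genotype by Macrogen, for the authors, on an Illumina NovaSeq instrument. Per the labels, HISAT2 2.1.0, StringTie 2.1.3b, Trimmomatic and bcl2fastq 2.20.0 were used, with roles not given in the sources used here, and the table carries the build mm10 in its name. The deposited read counts are whole and were not normalized. The FPKM values deposited by the authors are scaled per kilobase and library, and the TPM values deposited by the authors are scaled to a near-constant sum. TPM over FPKM was 1.94 in E14 and 2.15 in E14-Sox2TA/WT cells for all 10 genes.

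The ratio of TPM, with nothing added, was computed for genes reaching a TPM of 10 in either library. Differences of more than 2-fold were counted, after the filter and threshold that the study states. The counts over all genes nevertheless differ from those the study reported, with fewer higher and more lower genes, and the reason was not tested. No test was run, as each genotype had 1 library. Exact 95% counting intervals (Clopper-Pearson, scipy 1.17.1) of the read count ratio were placed on the TPM scale and checked on data drawn with known changes. Members, gene lists and motifs were chosen with earlier results of these data known. All members are described. Of each pathway list, genes past 2-fold and those with the highest and lowest ratio were named by rule, with all kinases, while other named genes (such as Cebpg, Hspa5, Xbp1, Atf6, Ero1l, Tnfrsf10b, Fgf21, Chchd10 and the remaining paralogs) were chosen after their values were seen. Gene positions and promoters are from RefSeq (GRCm38.p6) and exon overlaps from GENCODE M21. Symbols missing from the table were matched by synonym (1 gene). Alternatives were other filters, pseudocounts, fold thresholds and scalings, including TMM (edgeR 4.0.16) and size factors (DESeq2 1.42.0), and subtraction of the median ratio along GC content and length in 20 bins.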

Additional observations from a re-analysis of the deposited data

How the results depend on the processing

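The count of 8 regulators more than 2-fold lower was 7 at a TPM filter of 20, which leaves Atf3 out, 7 with the GC and length dependence subtracted, where Atf5 fell short, 7 where the whole counting interval had to lie past 2-fold, and 5 at a 3-fold threshold. It was 8 under each other alternative, and none was more than 2-fold higher under any of the 16. The median log2 ratio (-1.58) was -1.74 at the TPM filter of 20, -1.62 with TMM, -1.72 with CPM, -1.72 with FPKM, -1.67 when centred on the median of all genes and -1.36 with the GC and length dependence subtracted. Atf4 (-1.42) had -1.46, -1.56, -1.56, -1.51 and -1.22 with TMM, CPM, FPKM, centring and that subtraction, respectively. These values lie outside the counting interval of Atf4, which covers the counting of reads and not the choice of scaling. The shift with centring is set by the median of all genes. That with FPKM follows from the TPM over FPKM factors given above. What lies behind the dependence on GC content and length was not tested. All 10 genes kept a lower level in E14-Sox2TA/WT cells under every scaling and with the GC and length dependence subtracted. Filters and pseudocounts cannot reverse the direction of a gene, so they say nothing on this point. The median changed sign under some scaling or filter for 4 of the 12 pathway lists: eIF2 and eIF2B, ER chaperones, mitochondrial stress genes and mTORC1. The median of other downstream effectors (-0.25) was -0.41 without a filter and -0.44 with the GC and length dependence subtracted. Alternatives for the count of 9 of 46 other genes with the composite letters were added after seeing the data. This count ran from 5 of 40 with a TPM of at least 10 in both libraries to 18 of 74 (24.3%) at a TPM of at least 1. At the latter filter 9.67% of all genes with a promoter window were more than 2-fold lower. There, 7 of the 74 (9.46%) were more than 2-fold higher, beside 5.60% of all genes with a promoter window.

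Depth limits little here. Spread between cultures or clones was not measured, and genotype, clone and culture history cannot be told apart. No paired analysis was possible because each genotype had 1 library.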
